A study of Mus musculus with 25 samples.

Results

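The genes studied here are the cAMP-responsive genes Pde4b, Pde4d, Crem, Sik1, Nr4a1, Nr4a2, Nr4a3 and Ppargc1a, which lie downstream of receptors that couple to the stimulatory G protein Gs. They were taken by name, through the RefSeq accession that each probe carries in the scanner files, and the rule that names them uses no measured value, although earlier results of these data were known when they were chosen. All 8 genes had a probe, 15 probes in all of the 55681 on the array, and 7 of the 8 genes were among the 15104 genes that could be tested. Liver RNA of 25 female C57BL/6 mice (strain label C57BL/6NcrSlc) was measured on single-colour Agilent arrays, 1 mouse per array and 5 mice per group. The groups were ConA + BW245C at 3 hr, ConA + vehicle at 3 hr, ConA + BW245C at 24 hr, ConA + vehicle at 24 hr, and untreated. Mice of the first 4 groups were injected with concanavalin A (ConA) at 10 mg/kg, a jack bean lectin that brings on a T cell-driven hepatitis. After 15 min they received 1 mg/kg BW245C, an agonist of the prostaglandin D2 receptor DP1, or vehicle, by the intraperitoneal route, and livers were taken 3 or 24 hr later. Untreated mice are labelled as unstimulated, and mice given BW245C without ConA were not analysed here.

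DP1 couples to Gs, which activates adenylyl cyclase and raises cAMP in the cell that bears the receptor. cAMP activates protein kinase A, which phosphorylates the transcription factor CREB, and CREB with its CRTC coactivators switches on genes whose promoters hold cAMP response elements. Several of these genes feed back on the pathway: Pde4b and Pde4d encode phosphodiesterases that degrade cAMP, Crem encodes a CREB relative with a repressor isoform, and Sik1 encodes a kinase that holds CRTC coactivators in the cytoplasm. Nr4a1, Nr4a2 and Nr4a3 encode orphan nuclear receptors of the immediate-early class, and Ppargc1a encodes the coactivator PGC-1alpha, which in hepatocytes drives gluconeogenic and mitochondrial genes under glucagon. Inflammatory signals induce some of the same genes without cAMP. The comparison of ConA + BW245C with ConA + vehicle at 3 hr therefore addressed whether a cAMP readout was visible in whole liver RNA after the agonist.

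The promoters are shown first because the genes are known for answering to cAMP through response elements near their starts. RefSeq promoter windows (GRCm38.p6, 250 bases before the transcript start, strand of the gene) were found for 6 of the 8 genes, in 9 windows. They were searched on both strands for the full element TGACGTCA and for its 5-base core TGACG, which reads CGTCA on the other strand; each full element also contains the core on both strands. The full element was in 0 of the 9 windows and in 1.55% of all 32851 windows of the table. The core was in 5 of the 9 windows and in 17.8% of all windows. The windows of Nr4a1, Nr4a2 and Nr4a3 held 4 cores each, and 0.137% of all windows held 4 or more. The 5 windows with a core are printed 5′ to 3′ with the cores in capitals.
Nr4a1, chr15:101266596-101266845, plus strand: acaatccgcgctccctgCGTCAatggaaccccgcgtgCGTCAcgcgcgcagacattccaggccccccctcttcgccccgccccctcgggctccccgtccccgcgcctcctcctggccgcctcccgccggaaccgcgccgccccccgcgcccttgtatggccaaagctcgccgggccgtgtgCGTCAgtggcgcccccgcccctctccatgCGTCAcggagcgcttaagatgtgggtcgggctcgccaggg
Nr4a2, chr2:57124004-57124253, minus strand: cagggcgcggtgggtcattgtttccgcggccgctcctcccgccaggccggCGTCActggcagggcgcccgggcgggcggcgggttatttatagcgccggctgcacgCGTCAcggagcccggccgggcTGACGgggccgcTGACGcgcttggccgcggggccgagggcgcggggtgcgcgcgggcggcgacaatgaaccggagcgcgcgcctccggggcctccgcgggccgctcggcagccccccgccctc
Nr4a3, chr4:48045055-48045304, plus strand: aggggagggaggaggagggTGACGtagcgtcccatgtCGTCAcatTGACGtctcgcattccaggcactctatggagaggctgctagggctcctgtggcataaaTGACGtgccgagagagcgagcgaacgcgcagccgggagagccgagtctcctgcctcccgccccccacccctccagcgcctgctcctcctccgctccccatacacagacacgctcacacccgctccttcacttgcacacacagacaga
Pde4b, chr4:102421305-102421554, plus strand: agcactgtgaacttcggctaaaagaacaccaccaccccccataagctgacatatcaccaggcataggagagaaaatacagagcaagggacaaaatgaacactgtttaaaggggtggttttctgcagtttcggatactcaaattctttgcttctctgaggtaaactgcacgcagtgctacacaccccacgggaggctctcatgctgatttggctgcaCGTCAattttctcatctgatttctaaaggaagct
Ppargc1a, chr5:51567726-51567975, minus strand: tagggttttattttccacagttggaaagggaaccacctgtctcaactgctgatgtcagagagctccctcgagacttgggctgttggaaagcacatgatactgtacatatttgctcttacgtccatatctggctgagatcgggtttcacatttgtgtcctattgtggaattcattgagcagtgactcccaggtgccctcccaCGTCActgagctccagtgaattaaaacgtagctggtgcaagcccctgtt
The cores lay 233, 213, 69 and 40 bases before the start in Nr4a1, 200, 144, 123 and 111 bases before it in Nr4a2, and 231, 213, 205 and 147 bases before it in Nr4a3. The windows of Pde4b and Ppargc1a each had a single core, 34 and 49 bases before the start. The other 3 Pde4b windows and the Pde4d window had no core. A match describes letters in a window, and binding of CREB was not measured.

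Levels are log2 Cy3 signal relative to the 75th percentile of the array, so that 0 is the signal at that percentile, and levels of different probes are not compared. Between 52.2% and 61.6% of the spots of an array were well above background and 0 were saturated, and precision is limited by having 5 arrays per group. All 10 hepatocyte markers were well above background on every array. The receptor of the agonist, Ptgdr, stayed below the background criterion on all 25 arrays, with a measured level of -6.31 ± 0.24 in ConA + BW245C mice and -6.35 ± 0.13 in ConA + vehicle mice at 3 hr (SD, n = 5 each). Of the 5 slides, slide 3 carried the 5 agonist arrays of 3 hr beside 2 of the 5 vehicle arrays of that time, and slide 4 carried 3 agonist and 4 vehicle arrays of 24 hr. The agonist differences of the tested genes, and the counts of the pathway lists, are therefore also given from a fit that blocks on slide. In whole liver, fewer cells of a type and less RNA per cell cannot be told apart.

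**Figure D1:**
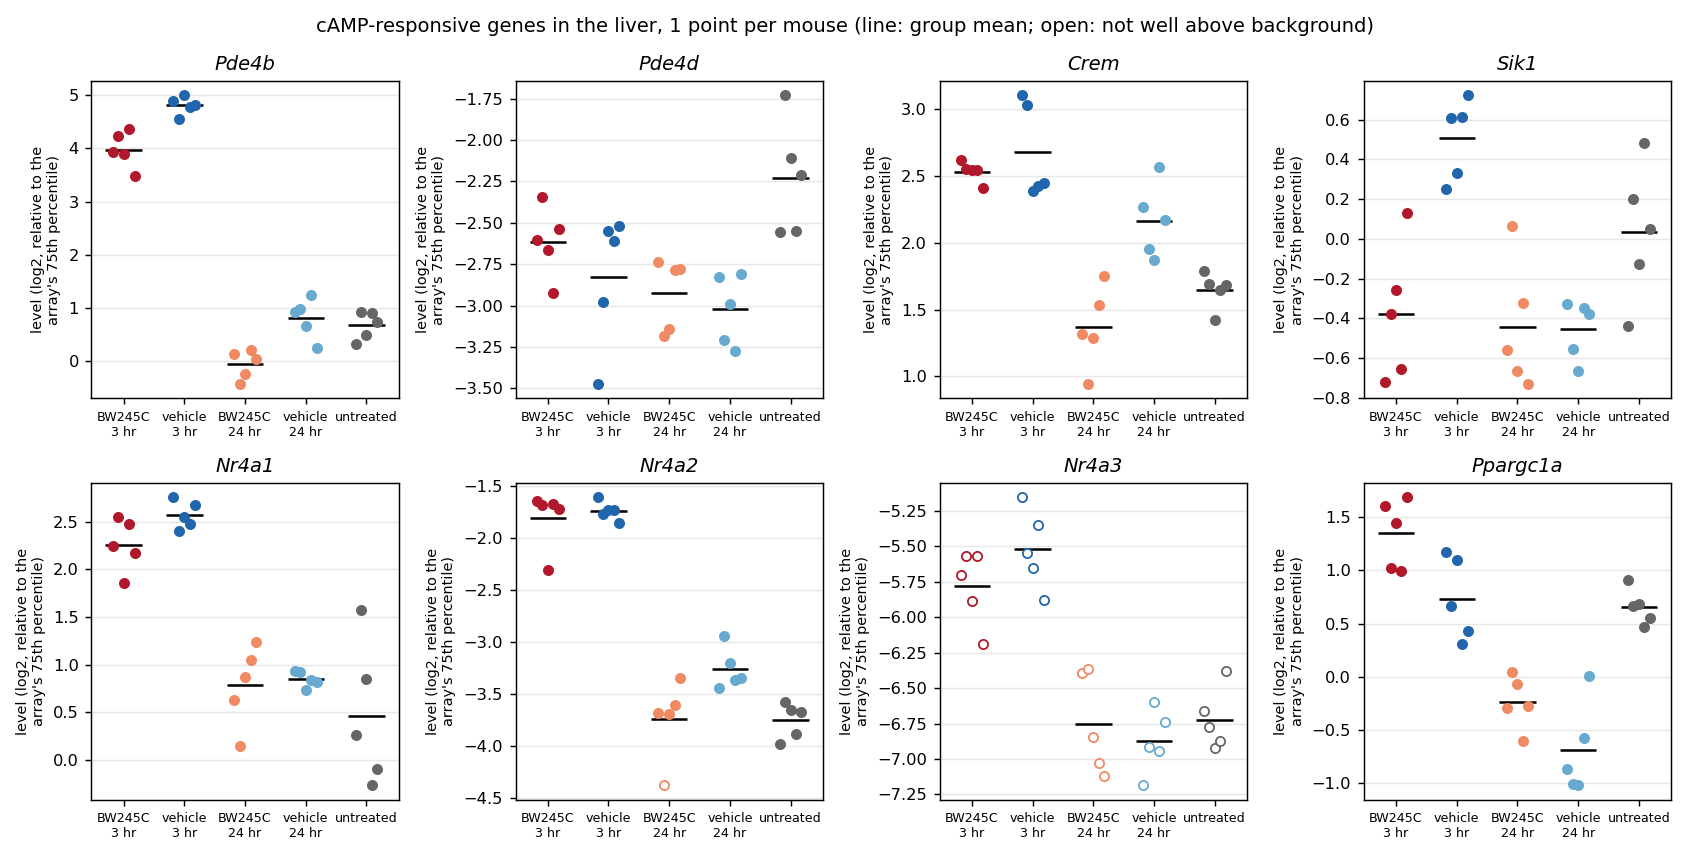
Level of each gene's brightest probe (log2, relative to the array's 75th percentile) in each of 5 mice per group, with the group mean as a line; open points were not well above background on that array. Pde4b and Sik1 of ConA + BW245C mice at 3 hr lie below all ConA + vehicle mice of that time, and Nr4a3 has open points only.

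At 3 hr the agonist arm did not show a common rise of these genes. Of the 7 genes tested, Ppargc1a was higher in ConA + BW245C than in ConA + vehicle livers, Pde4b and Sik1 were lower, and Pde4d, Crem, Nr4a1 and Nr4a2 did not pass the test. In this comparison 28.6% of all 15104 genes passed at an adjusted p under 0.05 (limma, Benjamini-Hochberg), 11.8% of them being higher genes and 16.9% lower genes, each as a share of all genes tested. These were 1776 higher and 2547 lower genes, against 2871 higher and 1754 lower with the scaling of the authors' series matrix. The median difference of the 7 genes was -0.14 on the log2 scale, against -0.037 over all genes.

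Pde4b, the cAMP phosphodiesterase of inflammatory cells, had levels of 3.93, 4.23, 3.89, 4.37 and 3.48 in the 5 ConA + BW245C mice at 3 hr, against 4.90, 4.56, 5.00, 4.79 and 4.83 in the 5 ConA + vehicle mice. Every agonist-treated mouse was below every vehicle-treated mouse. The difference was -0.84 ± 0.18 (SE) on the log2 scale, 1.78-fold lower (adjusted p = 0.00172, limma). Sik1, the kinase that restrains CREB coactivators, had levels of -0.72, -0.38, -0.26, -0.66 and 0.13 in ConA + BW245C mice at 3 hr, against 0.25, 0.61, 0.33, 0.61 and 0.72 in ConA + vehicle mice. These groups did not overlap either. Sik1 was 1.84-fold lower (-0.88 ± 0.17, adjusted p = 0.000822, limma). Pde4b and Sik1 were the only 2 of the 7 genes whose arrays lay apart in this comparison, both lower, where 9.49% of all genes lay apart in that direction. Blocking on slide gave -0.88, adjusted p = 0.0245 for Pde4b and -1.09, adjusted p = 0.00289 for Sik1 (limma). Within slide 3, where 5 agonist arrays met 2 vehicle arrays, they were -0.83 and -1.04, with adjusted p of 0.108 and 0.0644 (limma).

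Ppargc1a had levels of 1.60, 1.02, 1.44, 0.99 and 1.69 in ConA + BW245C mice at 3 hr, against 1.17, 0.67, 1.09, 0.31 and 0.43 in ConA + vehicle mice. The groups overlapped, with 2 vehicle-treated mice above the 2 lowest agonist-treated mice. The difference was 0.62 ± 0.20, 1.53-fold higher (adjusted p = 0.0235, limma), and 0.96, adjusted p = 0.0132 after blocking on slide, which is over 1.5 times the first value. Within slide 3 it was 0.98, adjusted p = 0.0663 (limma). The call rested on single mice: the adjusted p was 0.0502 without ConA + vehicle 3 hr replicate 2 (difference 0.60), 0.0574 without ConA + vehicle 3 hr replicate 4 (difference 0.51), 0.0594 without ConA + BW245C 3 hr replicate 1 (difference 0.55) and 0.0671 without ConA + BW245C 3 hr replicate 5 (difference 0.53) (limma). It was 0.0673 when the spread came from the groups compared alone.

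The remaining genes did not pass at 3 hr, and the intervals of those tested reached both signs. Crem differed by -0.14 ± 0.16, adjusted p = 0.51 (limma), with a 95% interval of -0.47 to 0.18, and its ConA + vehicle mice fell into 3 between 2.38 and 2.44 and 2 at 3.03 and 3.101, the 2 high mice being those on slide 2. Nr4a1 differed by -0.31 ± 0.25, adjusted p = 0.357 (limma), with an interval of -0.83 to 0.20. For Nr4a2 the difference was -0.068 ± 0.15, adjusted p = 0.766 (limma), with an interval of -0.38 to 0.25, and for Pde4d it was 0.21 ± 0.18, adjusted p = 0.383 (limma), with an interval of -0.15 to 0.58. In the fit that blocks on slide the uncalled values of Crem, Nr4a2 and Pde4d turned sign, to 0.0069, 0.026 and -0.056. Nr4a1 was -0.33 in that fit. Nr4a3, read by 1 probe spotted 10 times on each array, was not well above background in any mouse and has no fold. Its measured level was -5.78 ± 0.26 in ConA + BW245C mice and -5.52 ± 0.28 in ConA + vehicle mice at 3 hr (SD, n = 5 each).

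**Figure D2:**
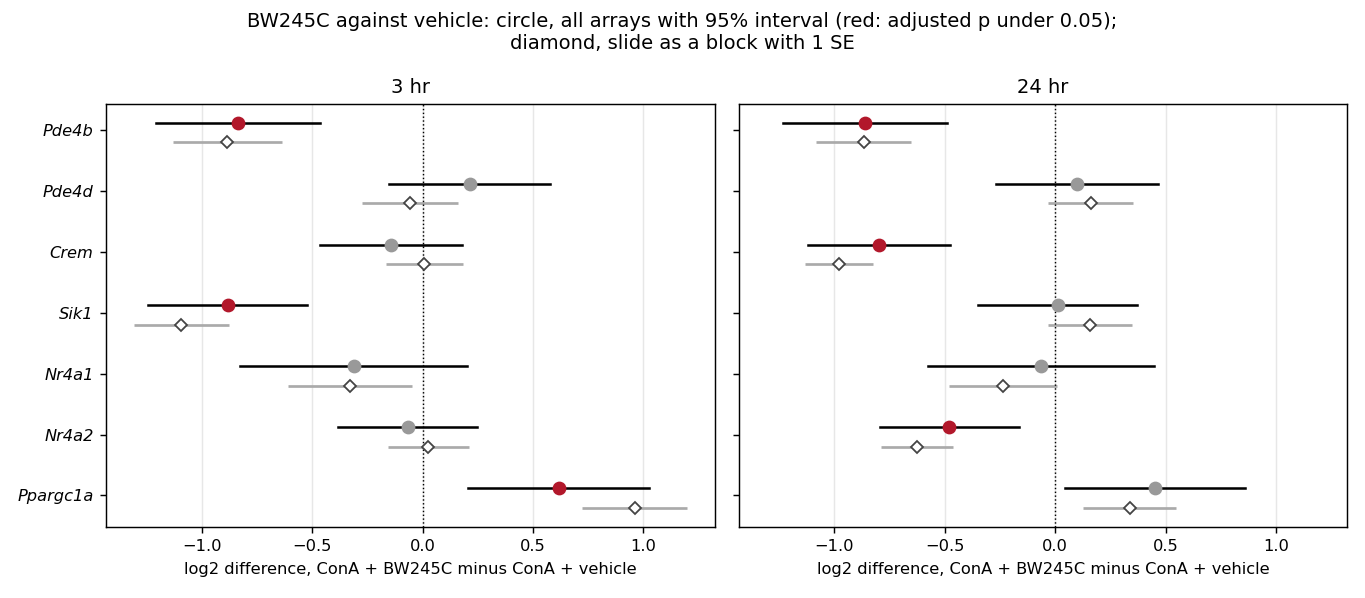
Difference between ConA + BW245C and ConA + vehicle livers (log2) for the 7 tested genes at 3 and 24 hr; circles are the fit over all arrays with its 95% interval, red where the adjusted p was under 0.05, and diamonds are the fit with the slide as a block, with 1 SE. Pde4b was lower at both times, Sik1 at 3 hr only by the test, and Crem and Nr4a2 at 24 hr.

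Few cell type markers measured on the same arrays passed the test at 3 hr. None of the 9 neutrophil markers passed the test, and their summed level (on the linear scale, relative to the array's 75th percentile) was 168 to 263 in ConA + BW245C mice and 177 to 295 in ConA + vehicle mice. Of the 9 T and NK cell markers 2 were higher and 1 was lower, with sums of 82.3 to 119 and 51.7 to 100 in the same groups. The median difference of these markers was -0.15 (log2), opposite in direction to the sums, in which bright markers weigh most. None of the 6 monocyte and macrophage markers, 5 Kupffer cell markers, 4 B cell markers or 8 sinusoidal markers passed, while 2 of 5 stellate cell markers were higher and 1 of 10 hepatocyte markers was lower. The part of the marker shifts in the results above was not tested.

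At 24 hr the genes that passed were all lower in the agonist arm. Pde4b, Crem and Nr4a2 were lower in ConA + BW245C than in ConA + vehicle livers, none of the 7 genes was higher, and Ppargc1a, Sik1, Nr4a1 and Pde4d did not pass. Over all genes, 26.6% passed, with 17.6% higher and 8.95% lower (2661 and 1352 genes, and 1957 and 2615 with the series matrix scaling). The median of the 7 differences was -0.063, against 0.014 over all genes.

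Pde4b had levels of 0.14, -0.42, -0.24, 0.22 and 0.046 in ConA + BW245C mice at 24 hr, against 0.92, 0.98, 0.65, 1.24 and 0.24 in ConA + vehicle mice. No agonist-treated mouse reached the lowest vehicle-treated mouse. It was 1.82-fold lower (-0.86 ± 0.18, adjusted p = 0.00114, limma). Crem had levels of 1.32, 0.95, 1.29, 1.54 and 1.75 in ConA + BW245C mice, against 2.27, 1.96, 1.87, 2.56 and 2.17 in ConA + vehicle mice, again without overlap. Crem was 1.74-fold lower (-0.80 ± 0.16, adjusted p = 0.000673, limma). The arrays of 2 of the 7 genes thus lay apart in the lower direction, where 5.41% of all genes did. The slide-blocked fit gave -0.87, adjusted p = 0.00626 for Pde4b and -0.98, adjusted p = 0.000311 for Crem (limma). Within slide 4, with 3 agonist and 4 vehicle arrays, they were -0.80 and -0.87, with adjusted p of 0.0992 and 0.0579 (limma).

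Nr4a2 had levels of -3.68, -4.37, -3.69, -3.60 and -3.34 in ConA + BW245C mice at 24 hr, against -3.44, -2.94, -3.20, -3.36 and -3.35 in ConA + vehicle mice. The groups overlapped narrowly, and the lowest agonist-treated mouse was not well above background. The difference was -0.48 ± 0.15, adjusted p = 0.0225 (limma), and -0.63, adjusted p = 0.0081 after blocking on slide (limma). The call ended with normexp background correction (-0.16, adjusted p = 0.162), quantile normalization (-0.38, adjusted p = 0.101), the mean of both probes (-0.28, adjusted p = 0.214) and a fit on only the groups compared (adjusted p = 0.0733, limma). It also ended on leaving out 1 of 2 mice, with an adjusted p of 0.0704 without ConA + vehicle 24 hr replicate 2 (difference -0.40) and 0.0781 without ConA + BW245C 24 hr replicate 2 (difference -0.32) (limma).

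Among the genes that did not pass at 24 hr, Ppargc1a had the largest difference, 0.45 ± 0.20, adjusted p = 0.0944 (limma), with a 95% interval of 0.043 to 0.86. Its levels were -0.29, 0.044, -0.066, -0.60 and -0.27 in ConA + BW245C mice, against -0.86, -1.001, -1.02, -0.58 and 0.005 in ConA + vehicle mice, and the highest vehicle-treated mouse lay above 4 of the 5 agonist-treated mice. Without that mouse, ConA + vehicle 24 hr replicate 5, Ppargc1a passed (adjusted p = 0.0145 without ConA + vehicle 24 hr replicate 5 (difference 0.63), limma). Sik1 differed by 0.012 ± 0.17 (interval -0.35 to 0.37), Nr4a1 by -0.063 ± 0.25 (interval -0.58 to 0.45) and Pde4d by 0.098 ± 0.18 (interval -0.27 to 0.46). Blocking on slide, these were 0.34 for Ppargc1a, 0.16 for Sik1, -0.24 for Nr4a1 and 0.16 for Pde4d, and none passed. Nr4a3 again stayed below the background criterion, at -6.75 ± 0.36 in ConA + BW245C mice and -6.88 ± 0.22 in ConA + vehicle mice (SD, n = 5 each).

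At 24 hr the neutrophil markers moved with the agonist arm. Of 9 measured markers 7 were lower and none was higher, with summed levels of 133 to 209 in ConA + BW245C mice and 260 to 392 in ConA + vehicle mice, which did not overlap. Stellate cell markers were higher in 4 of 5, with sums of 2.7 to 3.38 in ConA + BW245C mice and 1.57 to 2.03 in ConA + vehicle mice, and hepatocyte markers were higher in 4 of 10. Of the other lists, 1 of 9 T and NK cell markers was lower, 1 of 5 Kupffer cell and 1 of 8 sinusoidal markers were higher, and none of the 6 monocyte and macrophage or 4 B cell markers passed. The part of these shifts in the lower Pde4b, Crem and Nr4a2 was not tested.

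The agonist difference changed between the times for Sik1 and, on its brightest probe, for Crem. The difference at 24 hr minus that at 3 hr was 0.90 ± 0.25, adjusted p = 0.0108 for Sik1 and -0.65 ± 0.22, adjusted p = 0.0299 for Crem (limma). That is 1 of 7 genes higher and 1 lower, where 30% of all genes passed, 19.3% higher and 10.8% lower (2908 and 1630 genes, and 1435 and 3052 with the series matrix scaling). Blocking on slide gave 1.25, adjusted p = 0.0233 and -0.98, adjusted p = 0.0261 (limma). Sik1 did not pass with the authors' deposited series matrix values (0.67, adjusted p = 0.0555). The second probe of Crem gave -0.37, adjusted p = 0.119, and its dimmest, near background, 0.061, adjusted p = 0.929 (limma). Crem did not pass with the mean of its probes (-0.32, adjusted p = 0.299) or with only the groups compared (adjusted p = 0.052), and without single mice its adjusted p was 0.0614 without ConA + vehicle 3 hr replicate 3 (difference -0.58), 0.051 without ConA + vehicle 24 hr replicate 1 (difference -0.63), 0.0585 without ConA + vehicle 24 hr replicate 4 (difference -0.55), 0.0537 without ConA + BW245C 24 hr replicate 2 (difference -0.55) and 0.0532 without ConA + BW245C 24 hr replicate 3 (difference -0.63) (limma). For Pde4b the 2 differences gave an interaction of -0.026 ± 0.25, adjusted p = 0.949 (limma), with an interval of -0.55 to 0.50. Ppargc1a (-0.16 ± 0.28), Nr4a1 (0.25 ± 0.35), Pde4d (-0.11 ± 0.25) and Nr4a2 (-0.41 ± 0.22) did not pass, though Nr4a2 did with the series matrix values (-0.64, adjusted p = 0.0357) and without 1 mouse (adjusted p = 0.0466 without ConA + BW245C 3 hr replicate 3 (difference -0.54), limma).

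Most of these genes differed between ConA + vehicle and untreated livers at 3 hr. No group analysed here received vehicle alone, so ConA and the vehicle injection cannot be told apart in these differences. In ConA + vehicle against untreated livers 5 of the 7 genes were higher and 1 was lower, where 62% of all genes passed, 25% higher and 37% lower. The median difference of the 7 genes was 1.03, against -0.093 over all genes. Pde4b rose 17.6-fold (4.14 ± 0.18, adjusted p = 5.14e-15, limma), with levels of 4.56 to 5.00 in ConA + vehicle mice and 0.33 to 0.92 in untreated mice. The immediate-early receptors Nr4a1 and Nr4a2 rose 4.31-fold and 4.03-fold (2.11 ± 0.25, adjusted p = 1.04e-07, and 2.01 ± 0.15, adjusted p = 7.27e-11, limma). Nr4a1 ranged over 2.40 to 2.76 in ConA + vehicle mice and widely, over -0.27 to 1.57, in untreated mice. Nr4a2 ranged over -1.85 to -1.61 and -3.98 to -3.58 in the same groups, far apart. Crem rose 2.05-fold (1.03 ± 0.16, adjusted p = 4.04e-06, limma). For Nr4a3, below the background criterion in both groups, the measured levels were -5.52 ± 0.28 in ConA + vehicle mice and -6.72 ± 0.22 in untreated mice (SD, n = 5 each).

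Sik1 and Pde4d gave less stable differences between ConA + vehicle and untreated livers at 3 hr, and Ppargc1a gave none that passed. Sik1 was 0.47 ± 0.17, adjusted p = 0.022 (limma), with levels of 0.25 to 0.72 in ConA + vehicle mice and -0.44 to 0.48 in untreated mice, which overlapped. It did not pass after blocking on slide (0.27, adjusted p = 0.323) or with the series matrix values (0.37, adjusted p = 0.0834), and its adjusted p was 0.081 without untreated replicate 1 (difference 0.35), 0.0518 without untreated replicate 3 (difference 0.43) and 0.057 without ConA + vehicle 3 hr replicate 5 (difference 0.42) (limma). Pde4d was lower (-0.59 ± 0.18, adjusted p = 0.00574, limma), and did not pass with normexp (-0.18, adjusted p = 0.0701) or on the slides of 1 scan day (-0.20, adjusted p = 0.253). Ppargc1a differed by 0.079 ± 0.20, adjusted p = 0.741 (limma), with an interval of -0.33 to 0.49. Its other probe, well above background on 4 of the 5 untreated arrays, gave 0.64, adjusted p = 0.0571 (limma), which lies above that interval.

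By 24 hr most of the early rise was no longer seen. In ConA + vehicle against untreated livers 2 of the 7 genes were higher and 3 lower, where 68.9% of all genes passed, 29.8% higher and 39.1% lower (4495 and 5911 genes, and 7249 and 3783 with the series matrix scaling), and the medians were 0.13 for the 7 genes and -0.082 for all. Ppargc1a fell 2.54-fold (-1.34 ± 0.20, adjusted p = 2.34e-06, limma), with levels of -1.02 to 0.005 in ConA + vehicle mice and 0.47 to 0.90 in untreated mice. Pde4d (-0.79 ± 0.18, adjusted p = 0.000407) and Sik1 (-0.49 ± 0.17, adjusted p = 0.0164) were lower as well (limma). Sik1 did not pass with the series matrix values (-0.14, adjusted p = 0.489) or without 1 mouse (adjusted p = 0.0628 without untreated replicate 4 (difference -0.38), limma). Crem (0.52 ± 0.16, adjusted p = 0.00499) and Nr4a2 (0.49 ± 0.15, adjusted p = 0.00645) were higher, and neither passed after blocking on slide (0.56, adjusted p = 0.0728, and 0.47, adjusted p = 0.15, limma). Nr4a2 did not pass with normexp (0.07, adjusted p = 0.466) or quantile normalization (0.19, adjusted p = 0.336) either. The second probe of Crem gave 0.056, adjusted p = 0.719, and its dimmest, near background, 1.22, adjusted p = 0.00193 (limma). The other probe of Nr4a2 gave 0.26, adjusted p = 0.337 (limma). Pde4b differed by 0.13 ± 0.18, adjusted p = 0.523, which passed with the series matrix values (0.48, adjusted p = 0.0344, limma), and Nr4a1 by 0.38 ± 0.25, adjusted p = 0.173, which passed without 1 mouse (adjusted p = 0.00654 without untreated replicate 2 (difference 0.66), limma). The other measured probe of Pde4b passed (0.54, adjusted p = 0.00831, limma). No slide held both groups of this comparison.

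Most of the genes were also above untreated livers in the agonist arm at 3 hr, and since both arms are set against the same untreated mice their differences are only given side by side. In ConA + BW245C livers 5 of the 7 genes were higher than in untreated livers and 1 was lower, where 69.3% of all genes passed, 27% higher and 42.3% lower. Pde4b differed by 3.30 ± 0.18, Nr4a2 by 1.94 ± 0.15, Nr4a1 by 1.79 ± 0.25, Crem by 0.89 ± 0.16 and Ppargc1a by 0.70 ± 0.20, each with an adjusted p at or below 0.00361 (limma). No slide held both groups, and blocking on slide gave 3.21, 2.03, 1.41, 1.001 and 1.31 for these genes and -0.82 for Sik1, each past the test, with 5179 genes called in all against 10468 otherwise. Sik1 was lower (-0.41 ± 0.17, adjusted p = 0.0407, limma), with levels of -0.44 to 0.48 in the untreated mice, inside which 3 of its ConA + BW245C mice lay. That call ended without any 1 of 6 mice, the adjusted p being 0.0884 without untreated replicate 2 (difference -0.37), 0.137 without untreated replicate 4 (difference -0.30), 0.0627 without untreated replicate 5 (difference -0.41), 0.118 without ConA + BW245C 3 hr replicate 1 (difference -0.32), 0.0612 without ConA + BW245C 3 hr replicate 2 (difference -0.41) and 0.107 without ConA + BW245C 3 hr replicate 4 (difference -0.34) (limma). Pde4d differed by -0.38 ± 0.18, adjusted p = 0.0596, and by -0.84, adjusted p = 0.0397 after blocking on slide (limma). It also passed without single mice (adjusted p of 0.0319 without untreated replicate 1 (difference -0.46), 0.033 without untreated replicate 4 (difference -0.46) and 0.0394 without ConA + BW245C 3 hr replicate 2 (difference -0.45), limma).

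At 24 hr none of the 7 genes was higher in ConA + BW245C than in untreated livers and 4 were lower, where 56.6% of all genes passed, 22.7% higher and 33.8% lower (3436 and 5106 genes, and 5500 and 3179 with the series matrix scaling; 5517 in all after blocking on slide). The 4 were Ppargc1a (-0.89 ± 0.20, adjusted p = 0.000521), Pde4b (-0.73 ± 0.18, adjusted p = 0.00137), Pde4d (-0.69 ± 0.18, adjusted p = 0.00197) and Sik1 (-0.48 ± 0.17, adjusted p = 0.0233, limma). These calls are those of each gene's brightest probe. The other measured probes did not pass, at -0.40, adjusted p = 0.25 for Ppargc1a, -0.35, adjusted p = 0.0993 for Pde4b and -0.0056, adjusted p = 0.984 for Pde4d (limma). Sik1 had a single probe. On the brightest probes, only Pde4d of the 4 genes passed after blocking on slide, with values of -0.92, adjusted p = 0.0256 for Pde4d, -0.82, adjusted p = 0.07 for Pde4b, -0.61, adjusted p = 0.165 for Ppargc1a and -0.71, adjusted p = 0.0724 for Sik1 (limma). With the series matrix values Sik1 did not pass either (-0.24, adjusted p = 0.264). Without single mice the adjusted p of Sik1 was 0.0559 without untreated replicate 2 (difference -0.43), 0.0847 without untreated replicate 4 (difference -0.36), 0.0506 without ConA + BW245C 24 hr replicate 1 (difference -0.45), 0.0569 without ConA + BW245C 24 hr replicate 3 (difference -0.42) and 0.0665 without ConA + BW245C 24 hr replicate 5 (difference -0.40) (limma). Crem (-0.28 ± 0.16) passed without 1 mouse (adjusted p = 0.049 without ConA + BW245C 24 hr replicate 5 (difference -0.37)) and Nr4a1 (0.32 ± 0.25) without another (adjusted p = 0.0163 without untreated replicate 2 (difference 0.60), limma). The second probe of Crem was lower and passed (-0.59, adjusted p = 0.000571, limma). Its dimmest probe, near background, was higher (1.06, adjusted p = 0.00805, limma). Nr4a2 differed by 0.012 ± 0.15.

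The order of the group means differed between the genes. For Pde4b the means were 3.98 ± 0.35 in ConA + BW245C and 4.81 ± 0.16 in ConA + vehicle mice at 3 hr, -0.053 ± 0.27 and 0.81 ± 0.38 in the same arms at 24 hr, and 0.68 ± 0.26 in untreated mice (SD, n = 5 each). Both 3 hr groups lay far above the rest, and ConA + vehicle at 24 hr and untreated mice did not differ by the test on the brightest probe. For Ppargc1a the means were 1.35 ± 0.33 in ConA + BW245C and 0.73 ± 0.39 in ConA + vehicle mice at 3 hr, -0.24 ± 0.25 and -0.69 ± 0.43 in the same arms at 24 hr, and 0.65 ± 0.17 in untreated mice. Here the 2 groups of 24 hr were the lowest. For Sik1 they were -0.38 ± 0.34 in ConA + BW245C and 0.51 ± 0.20 in ConA + vehicle mice at 3 hr, -0.44 ± 0.32 and -0.46 ± 0.15 in the same arms at 24 hr, and 0.033 ± 0.35 in untreated mice. ConA + vehicle at 3 hr stood highest and untreated mice next, while the other 3 group means were within 1 SD of each other. Crem averaged 2.53 ± 0.075 in ConA + BW245C and 2.68 ± 0.36 in ConA + vehicle mice at 3 hr, 1.37 ± 0.30 and 2.17 ± 0.27 in the same arms at 24 hr, and 1.64 ± 0.13 in untreated mice. ConA + BW245C at 24 hr stood lowest, and whether it was apart from untreated mice by the test depended on the probe. Nr4a1 averaged 2.26 ± 0.27 in ConA + BW245C and 2.57 ± 0.14 in ConA + vehicle mice at 3 hr, 0.78 ± 0.42 and 0.85 ± 0.083 in the same arms at 24 hr, and 0.46 ± 0.75 in untreated mice. Nr4a2 averaged -1.81 ± 0.28 in ConA + BW245C and -1.74 ± 0.089 in ConA + vehicle mice at 3 hr, -3.74 ± 0.38 and -3.26 ± 0.20 in the same arms at 24 hr, and -3.75 ± 0.17 in untreated mice. In both of these nuclear receptor genes the 3 hr groups stood above the other 3. Pde4d ran the other way, with -2.61 ± 0.21 in ConA + BW245C and -2.83 ± 0.40 in ConA + vehicle mice at 3 hr, -2.92 ± 0.22 and -3.02 ± 0.21 in the same arms at 24 hr, and the highest mean, -2.23 ± 0.34, in untreated mice.

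Several genes were read by more than 1 probe, and some of these probes were too dim to be set against the brightest. The other measured probe of Pde4b gave -1.003, adjusted p = 0.000317 at 3 hr and -0.89, adjusted p = 0.000901 at 24 hr for ConA + BW245C against ConA + vehicle (limma), the same direction as the brightest probe. A further Pde4b probe stayed below the background criterion throughout. For Crem, the second probe gave -0.64, adjusted p = 0.00123 at 24 hr (limma). The dimmest, which carries another RefSeq transcript, was well above background on 1 of 5 ConA + BW245C and 3 of 5 ConA + vehicle arrays at 24 hr and on no untreated array, so its measured difference of -0.16, adjusted p = 0.757 (limma) lies near background. The other probe of Nr4a2 gave -0.082, adjusted p = 0.839 at 24 hr (limma), but was likewise well above background on only 1 of 5 ConA + BW245C and 3 of 5 ConA + vehicle arrays. The other probe of Ppargc1a gave 0.60, adjusted p = 0.113 at 3 hr, close in size to the brightest probe but not past the test (limma). For Pde4d the second probe gave -0.20, adjusted p = 0.382 at 3 hr and -0.27, adjusted p = 0.24 at 24 hr for ConA + vehicle against untreated livers (limma), so that the lower Pde4d rests on 1 probe. For ConA + BW245C against ConA + vehicle at 3 hr that second probe gave -0.21, adjusted p = 0.436 (limma), the opposite sign to the brightest probe, and neither passed. Sik1 and Nr4a1 each had a single probe.

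**Figure D3:**
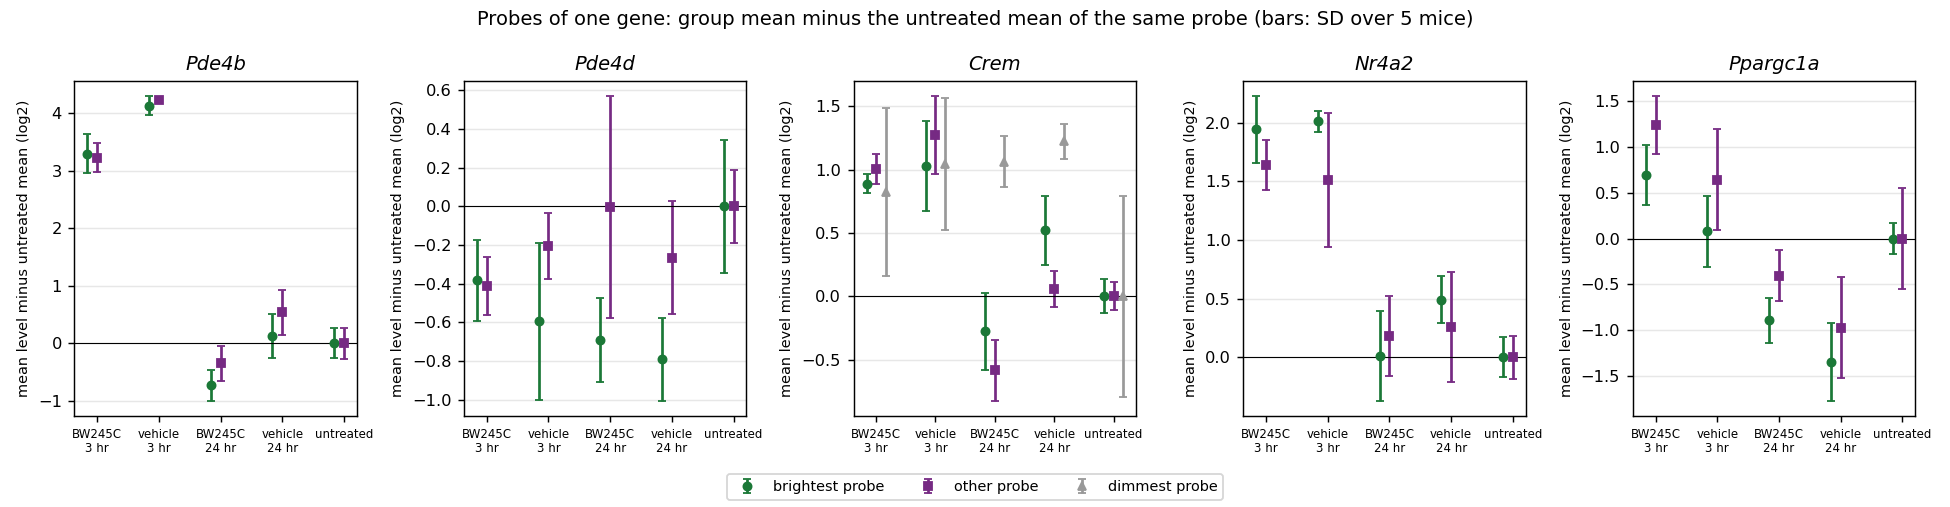
Group mean of each measured probe minus the untreated mean of the same probe (log2), for the 5 genes with more than 1 measured probe; bars are the SD over 5 mice. The probes of Pde4b run together at 3 hr. At 24 hr they stand at 0.13 and 0.54 for ConA + vehicle, and at -0.73 and -0.35 for ConA + BW245C. Those of Pde4d part at 24 hr and, for ConA + vehicle, at 3 hr (-0.59 and -0.20). Those of Ppargc1a stand at 0.079 and 0.64 for ConA + vehicle at 3 hr, and at 0.70 and 1.24 for ConA + BW245C. The brightest and second probes of Crem stand at 0.52 and 0.056 for ConA + vehicle at 24 hr. The dimmest Crem probe was well above background on 0 to 3 of the 5 arrays of a group and shows values near background.

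Upstream of these genes, receptors and enzymes of the cAMP pathway passed the test with the agonist in both directions, where 28.6% of all genes passed at 3 hr and 26.6% at 24 hr. Of 15 measured receptors that couple to Gs, 4 were higher and 1 lower in ConA + BW245C than in ConA + vehicle livers at 3 hr (median 0.24), and 3 were higher and 2 lower at 24 hr (median -0.16). Blocking on slide left 2 higher and 1 lower at 3 hr, and 3 higher and 2 lower at 24 hr. The parathyroid hormone receptor Pth1r was higher at both times (1.38 ± 0.21, adjusted p = 7.43e-05 at 3 hr, and 1.13 ± 0.21, adjusted p = 0.000483 at 24 hr, limma), as was the VIP receptor Vipr1 (0.59 ± 0.10 and 0.78 ± 0.10). The glucagon receptor Gcgr was higher (0.77 ± 0.14, adjusted p = 0.000424, limma) and the adenosine receptor Adora2b lower (-1.47 ± 0.35, adjusted p = 0.00334, limma) at 24 hr. Adrb1 (0.67 ± 0.23) and the GLP-1 receptor Glp1r (0.59 ± 0.18) were higher at 3 hr, but neither passed after blocking on slide (0.22, adjusted p = 0.584, and 0.11, adjusted p = 0.675, limma). In ConA + vehicle against untreated livers at 3 hr, 7 of the 15 receptors were higher and 3 lower. Over all genes 62% passed in that comparison, 25% higher and 37% lower. Pth1r was among the lower receptors, 30.5-fold (adjusted p = 4.4e-15, limma).

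Of 12 cyclases and G protein subunits 2 were higher and 1 lower at 3 hr (median -0.076), and 2 were higher and none lower at 24 hr (median 0.12). After blocking on slide 1 was higher and none lower at 3 hr, and 1 was higher and 1 lower at 24 hr, while with quantile normalization none passed in either direction at 3 hr (limma). The cyclase Adcy5 was higher at both times (0.55 ± 0.18 at 3 hr and 0.80 ± 0.18 at 24 hr, with adjusted p of 0.0233 and 0.00177, limma). Adcy7 (0.62 ± 0.23) was higher and the inhibitory subunit gene Gnai2 (-0.21 ± 0.065) lower at 3 hr, and Adcy9 (0.63 ± 0.19) was higher at 24 hr. Of these only Adcy5 passed after blocking on slide, at both times. Of 19 cAMP effectors 3 were higher and 2 lower at 3 hr (median 0.029), and 2 were higher and 4 lower at 24 hr (median 0.11). After blocking on slide 1 was higher and none lower at 3 hr, and 2 were higher and 3 lower at 24 hr. With the series matrix values 5 were higher and none lower at 3 hr, and none was higher and 4 lower at 24 hr. Rapgef3, which encodes the cAMP sensor EPAC1, was 2.6-fold higher at 3 hr (1.38 ± 0.19, adjusted p = 2.65e-05, limma), and in ConA + vehicle against untreated livers it was 13.4-fold lower at that time (adjusted p = 8.52e-14, limma). The protein kinase A subunit Prkar2a was higher by 0.40 ± 0.11 at 3 hr (adjusted p = 0.0102, limma). Pkib, a protein kinase A inhibitor, was higher at 3 hr (0.49 ± 0.11) and lower at 24 hr (-0.29 ± 0.11). The anchoring protein gene Akap1 was lower at 3 hr (-0.33 ± 0.097) and higher at 24 hr (0.34 ± 0.097), and Akap10 was lower at both times (-0.22 ± 0.08 and -0.25 ± 0.08). At 24 hr the kinase subunit Prkacb (0.28 ± 0.091) was higher, and Akap12 (-0.96 ± 0.33) and the regulatory subunit Prkar1a (-0.27 ± 0.088) were lower. Of the effectors named, Rapgef3 passed after blocking on slide at 3 hr, and Pkib, Prkar2a, Akap1 and Akap10 did not (0.34, adjusted p = 0.0645, 0.38, adjusted p = 0.0784, -0.35, adjusted p = 0.0593 and -0.19, adjusted p = 0.239, limma). At 24 hr Akap1, Akap10, Akap12 and Prkar1a passed in that fit, and Pkib (-0.20, adjusted p = 0.15) and Prkacb (0.23, adjusted p = 0.0653) did not (limma).

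Among 12 other phosphodiesterases 3 were higher and 1 lower at 3 hr (median 0.27), and 1 was higher and 1 lower at 24 hr (median 0.081). Blocking on slide left 2 higher and none lower at 3 hr, and 1 higher and 1 lower at 24 hr. Pde7b, which degrades cAMP, was not well above background on any ConA + vehicle array at 3 hr and was at least 1.68-fold higher in ConA + BW245C livers, where 4 of 5 arrays measured it (adjusted p = 0.00283, limma). Such a bound sets the mean of the bright group against the lowest signal well above background on the dim group's arrays, or the probe's own signal there if higher. Pde2a (0.55 ± 0.11) and Pde3a (0.61 ± 0.19) were higher and Pde1a (-0.88 ± 0.17) lower, and Pde3a and Pde1a did not pass after blocking on slide (0.12, adjusted p = 0.68, and -0.59, adjusted p = 0.0593, limma). At 24 hr Pde3b, the insulin-regulated phosphodiesterase, was higher (0.73 ± 0.11, adjusted p = 7.07e-05, limma) and Pde1b lower (-0.44 ± 0.13). Of 10 CREB family members and coactivators apart from Crem and Sik1, 1 was higher and 3 lower at 3 hr (median -0.18), and 3 were higher and none lower at 24 hr (median 0.0086). The 24 hr split depended on the setting: it was 2 higher and 2 lower after blocking on slide, and 2 higher and 4 lower with the series matrix values. At 3 hr the slide-blocked split was 2 higher and 1 lower. Creb1 was lower at 3 hr (-0.82 ± 0.19, adjusted p = 0.00259, limma), with 1 of 5 agonist and 5 of 5 vehicle arrays well above background, and was not past the test after blocking on slide (-0.44, adjusted p = 0.0918). The coactivators Crebbp (-0.47 ± 0.086) and Crtc2 (-0.37 ± 0.081) were lower and Crtc1 (0.51 ± 0.12) higher at 3 hr, and Crtc2 did not pass after blocking on slide (-0.25, adjusted p = 0.0628, limma). At 24 hr Sik3 (0.50 ± 0.12), the calcineurin subunit Ppp3ca (0.29 ± 0.075) and Crebbp (0.23 ± 0.086) were higher. Crebbp did not pass at 24 hr after blocking on slide (0.20, adjusted p = 0.117, limma).

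Genes that CREB is known to switch on were more often lower than higher in the agonist arm. Of 24 other CREB target genes measured, 4 were higher and 12 lower in ConA + BW245C than in ConA + vehicle livers at 3 hr, where 11.8% of all genes were higher and 16.9% lower, with a median difference of -0.73 against -0.037 over all genes. Blocking on slide left 2 higher and 9 lower. At 24 hr none was higher and 11 were lower, where 17.6% of all genes were higher and 8.95% lower, with a median of -0.70 against 0.014 over all genes, and after blocking on slide 12 were lower. Under the 4 other ways of scaling or background correction 10 to 12 were lower and 3 to 5 higher at 3 hr, and 11 to 14 were lower and none higher at 24 hr. The list holds immediate-early genes that many signals induce. In ConA + vehicle against untreated livers 16 were higher and 3 lower at 3 hr (median 1.48). Over all genes 25% were higher and 37% lower there (median -0.093). At 24 hr 17 were higher and 5 lower (median 1.25), where 29.8% of all genes were higher and 39.1% lower (median -0.082).

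The MAP kinase phosphatase Dusp1 was 8.56-fold lower at 3 hr (-3.10 ± 0.30, adjusted p = 4.49e-07, limma). The prostaglandin synthase Ptgs2 was 8.12-fold lower at 3 hr and 8.37-fold lower at 24 hr (adjusted p = 0.000224, and adjusted p = 0.000182, limma), with 2 and 4 of the 5 agonist arrays well above background. Id3 (-2.45 ± 0.24), Cited2 (-2.24 ± 0.31) and Fos (-1.92 ± 0.48) were lower at 3 hr, and all 3 passed after blocking on slide. The gluconeogenic gene G6pc was higher at 3 hr, by 2.64 ± 0.48, adjusted p = 0.0004 (limma), and Pck1 (0.72 ± 0.27) and Tat (0.69 ± 0.24), which like G6pc respond to glucagon in hepatocytes, were the other higher genes beside Thbd (1.19 ± 0.33); Pck1 and Tat are named after their values were seen. In ConA + vehicle against untreated livers G6pc was 337-fold lower at 3 hr (adjusted p = 6.51e-13, limma). After blocking on slide Thbd (1.12, adjusted p = 0.116), Pck1 (0.78, adjusted p = 0.149) and Tat (0.95, adjusted p = 0.0522) did not pass at 3 hr (limma). At 24 hr Atf3 (-1.64 ± 0.36), Junb (-1.40 ± 0.29), Fos (-1.36 ± 0.48), Klf4 (-1.20 ± 0.23) and Egr1 (-1.10 ± 0.37) were lower, each also after blocking on slide.

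**Figure D4:**
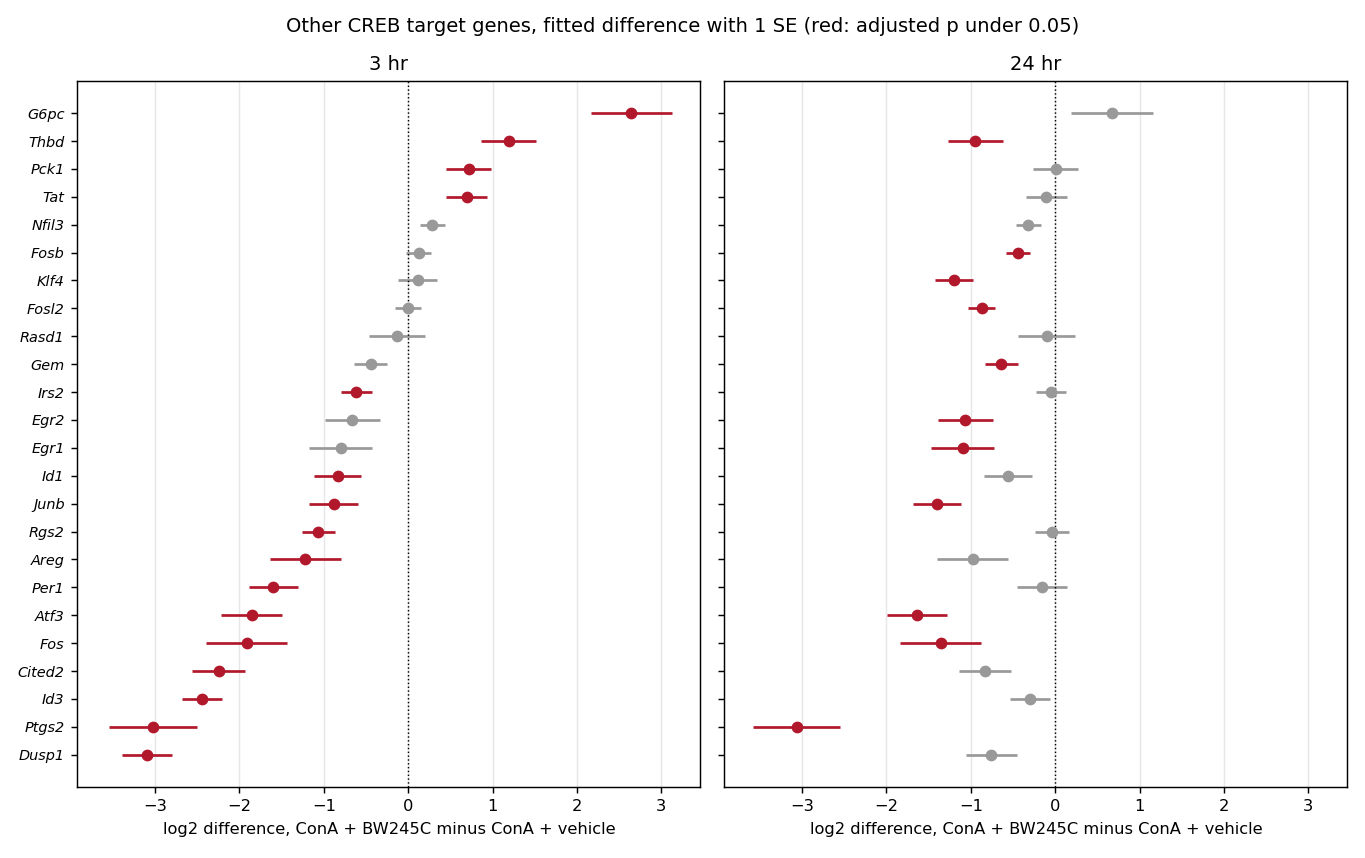
Difference between ConA + BW245C and ConA + vehicle livers (log2, with 1 SE) for 24 other CREB target genes at 3 and 24 hr, ordered by the 3 hr value; red marks an adjusted p under 0.05. At 3 hr 12 genes were lower and G6pc, Thbd, Pck1 and Tat were higher; at 24 hr 11 were lower and none higher.

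The genes nearest to each of the 7 in pattern were found by the root mean square difference between the 5 centred group means (log2), over 5 groups of 5 mice. For Pde4b, whose own means span 4.87, they were Ikzf4 (0.323) and Cldn14 (0.371). For Crem they were 4931440P22Rik (0.0583) and Olfr100 (0.114), for Sik1 Bcr (0.0462) and Cldn2 (0.063), and for Pde4d Lmo4 (0.0416) and Mttp (0.0417). For Nr4a1 they were Sdc4 (0.0942) and Cr2 (0.0975), for Nr4a2 Epp13 (0.0645) and Slc11a2 (0.0879), and for Ppargc1a Pitpnc1 (0.0781) and Adam39 (0.0862). None of the 7 genes was among the nearest 2 of another. Nr4a3, which was not tested, was not part of this search.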

How the data were processed

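Liver RNA (0.5 ug labelled per array, per the labels' protocols) of 25 mice was read on 25 single-colour Agilent arrays. The scanner files hold a background-subtracted processed intensity for each spot, made by the authors with Feature Extraction 10.7.3.1 on an mm9 design, per the file headers; the submitters' processing notes name version 9.1. In the series matrix, also deposited, each array's processed intensities are multiplied by a single factor (within 0.0267%), and the rule behind the factor is not given in the sources used here.

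Control and outlier-flagged spots were left out, processed intensities were put on the log2 scale, the 75th percentile of each array (signal 223 to 468) was subtracted, and the spots of a probe were averaged. Of 55681 probes, 26582 matched 1 gene symbol through their RefSeq accession and 29099 stayed unnamed. Probes well above background on at least 5 arrays were kept (33502, of which 19625 had a symbol), and a gene took its probe of highest mean over the 25 arrays, which left 15104 genes. limma 3.58.1 (R 4.3.3) was fitted with 1 mean per group over all 25 arrays, with Benjamini-Hochberg adjustment over all genes and a threshold of 0.05; 7 comparisons were made. No 2 arrays held identical values. The labels number the mice of a group, and the p-values measure the spread between them. On simulated data for ConA + BW245C against ConA + vehicle at 3 hr (15104 genes), 29, 37, 50 and 50 of 50 genes changed 1.5-, 2-, 4- and 8-fold were recovered, and 8 of 14904 unchanged genes were called. A far smaller share of genes was changed there than the 28.6% that passed in the measured comparison, so these rates need not hold for it.

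The slide numbers and scan days come from the file headers; slide 2 was scanned on the day after the others. The alternatives were normexp on the median signal (offset 50), quantile normalization, scaling to the median of the probes detected throughout, omitting the filter or requiring all 25 arrays, slide blocked (fixed or random) or 1 slide at a time, a replicate block, only the groups compared, the mean of a gene's probes, every probe on its own, the series matrix values, a threshold of 0.01, leaving out each mouse and, added after the data were seen, the arrays of 1 scan day. Replicate numbers only count mice.

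The 8 genes and all their probes were always described; of the pathway lists, genes with the largest called differences were named, up to 6 per list with the agonist. The values of 1 gene of the receptor list are not reported here. The genes and lists were chosen with earlier results of these data known. Promoter windows are from RefSeq (GRCm38.p6) and were searched with a Python 3.11.15 script.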

Additional observations from a re-analysis of the deposited data

Results flagged for a closer look

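Nr4a2 in ConA + BW245C 3 hr replicate 3 had a level of -2.31, apart from the other 4 mice of the group at -1.73 to -1.65. The gap was 0.883 of the group's range, against a limit of 0.71 for 5 values. This was the 1 such mouse among 35 groups of 5 values checked, where chance gives about 1 in 20. Without it the agonist difference of Nr4a2 at 3 hr was 0.058, and the difference between the times passed (adjusted p = 0.0466 without ConA + BW245C 3 hr replicate 3 (difference -0.54), limma).

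The agonist difference at 24 hr minus that at 3 hr passed the interaction test for Crem (-0.65, brightest probe only) and Sik1 (0.90), in opposite directions.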

How the results depend on the processing

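The lower Pde4b and Sik1 in ConA + BW245C livers at 3 hr and the lower Pde4b and Crem at 24 hr kept their direction and their call under every alternative that used the brightest probe or the mean of probes over several slides, and without each mouse; within single slides they kept their direction only, and the dimmest Crem probe, near background, did not pass at 24 hr. Of the 7 counts of called genes, 2 moved by over 1.5 times when blocking on slide, to 3 for ConA + vehicle against untreated at 24 hr (5 otherwise) and to 1 for ConA + BW245C against untreated at 24 hr (4 otherwise). The interaction count of 2 was 1 with only the groups compared, 1 with the mean of probes, 0 at a threshold of 0.01 (limma, 2 of 7 genes at an unadjusted p under 0.05) and 1 to 3 without single mice. It was 1 without ConA + vehicle 3 hr replicate 3, ConA + vehicle 24 hr replicates 1 or 4, or ConA + BW245C 24 hr replicates 2 or 3, and 3 without ConA + BW245C 3 hr replicate 3.

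Values that turned sign had not passed the test. For Crem in the agonist against vehicle at 3 hr the turned values were 0.0069 with a fixed slide block, 0.097 with slide 3 alone and 0.11 with 1 scan day. For Nr4a2 in the agonist against vehicle at 3 hr the turned values were 0.026 with a fixed slide block, 0.032 with the mean of probes and 0.046 with the series matrix. For Pde4d in the agonist against vehicle at 3 hr the turned values were -0.056 with a fixed slide block, -0.047 with slide 3 alone and -0.053 with 1 scan day. For Pde4d in the agonist against vehicle at 24 hr the turned values were -0.014 with the series matrix. For Sik1 in the agonist against vehicle at 24 hr the turned values were -0.10 with the series matrix. For Ppargc1a in ConA + vehicle against untreated at 3 hr the turned values were -0.026 with the series matrix and -0.041 with 1 scan day. For Crem in ConA + BW245C against untreated at 24 hr the turned values were 0.067 with the mean of probes. For Nr4a1 in ConA + BW245C against untreated at 24 hr the turned values were -0.18 with a fixed slide block and -0.70 with slide 2 alone. For Nr4a2 in ConA + BW245C against untreated at 24 hr the turned values were -0.087 with normexp, -0.19 with quantile normalization, -0.15 with a fixed slide block, -0.0094 with a random slide block and -0.12 with slide 2 alone. For Pde4b in the interaction the turned values were 0.12 with normexp, 0.016 with a fixed slide block, 0.043 with the mean of probes and 0.078 with 1 scan day. For Pde4d in the interaction the turned values were 0.022 with normexp, 0.16 with quantile normalization, 0.22 with a fixed slide block, 0.051 with a random slide block, 0.18 with the mean of probes and 0.21 with 1 scan day. Without single mice the ranges that crossed 0 were -0.031 to 0.19 for Ppargc1a (ConA + vehicle against untreated at 3 hr), -0.087 to 0.17 for Nr4a2 (ConA + BW245C against untreated at 24 hr), -0.11 to 0.058 for Nr4a2 (ConA + BW245C against ConA + vehicle at 3 hr), -0.17 to 0.081 for Pde4b (the difference between the times), -0.19 to 0.047 for Pde4d (the difference between the times), -0.27 to 0.0096 for Ppargc1a (the difference between the times), -0.18 to 0.098 for Nr4a1 (ConA + BW245C against ConA + vehicle at 24 hr) and -0.11 to 0.084 for Sik1 (ConA + BW245C against ConA + vehicle at 24 hr). The cause of these turns was not tested. For normexp the median spot signal was used.

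The replicate block changed no call, and the counts stayed 3, 3, 6, 5, 6, 4 and 2. The numbers did not pair the mice: 4 of 25 arrays matched their own number best in another group, and the 50 same-number pairs had a median correlation of -0.0136 (lowest -0.361). Over all genes, blocking on slide left 1770 called for ConA + BW245C against ConA + vehicle at 3 hr (4323 otherwise), 928 for the interaction (4538), 5179 for ConA + BW245C against untreated at 3 hr (10468) and 5517 at 24 hr (8542). With the series matrix values the all-gene median became 0.078 (-0.037 otherwise) for ConA + BW245C against ConA + vehicle at 3 hr, -0.098 (0.014) at 24 hr, -0.12 (0.10) for the interaction, 0.26 (-0.082) for ConA + vehicle and 0.15 (-0.086) for ConA + BW245C against untreated at 24 hr, and -0.20 (-0.093) for ConA + vehicle against untreated at 3 hr. Signal over background limited Nr4a3, which has no call, and Nr4a2 at 24 hr.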
